A study of Homo sapiens with 12 samples.

Results

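The HES and HEY repressor genes, HES1 to HES7, HEY1, HEY2 and HEYL, were examined for H3K27me3 in T24 cells. They are 10 genes by name. A gene counted as measured where a deposited peak named it as the nearest gene and had its centre within 10 kb of its transcription start site (TSS), and its value was the number of ChIP fragments in the consensus intervals that such peaks overlap. That held for 9 of the 10 genes, of 18981 genes measured this way. Members were therefore chosen by the deposited peak calls of the same 4 libraries, so the values below are a description, with no test. HES6 had no peak of its own at any distance.

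H3K27me3, trimethylation of lysine 27 on histone H3, marks repressed chromatin and is written by EZH2 within a Polycomb complex. T24 is an established human bladder cancer cell line. Cells received 5 µM GSK-126, an EZH2 inhibitor, for 72 h, or 5 µM fenretinide, a synthetic retinoid, for 72 h, or GSK-126 and fenretinide together, each at 5 µM, for 72 h (combination), or DMSO vehicle, whose time the label does not give. Each condition had 1 library, so no difference has a replicate check, and the values compare libraries rather than conditions. Of the 12 samples listed, 4 were H3K27me3 ChIP libraries; the 4 input and 4 RNA samples were not analysed here, so whether these cells carry the transcripts that define urothelium was not checked.

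HES and HEY proteins are basic helix-loop-helix repressors, and several of their genes are known as direct targets through which Notch signalling acts. After a Notch receptor is cleaved, its intracellular part joins the DNA-binding protein RBPJ on the promoters of such target genes. HES proteins then bind DNA at N-box and class C sites, recruit Groucho/TLE corepressors and repress genes such as the proneural factors. HEY proteins repress their targets mainly through other corepressors. In vertebrate embryos, genes of this family keep progenitor cells from differentiating, and HES7 is part of the segmentation clock. In bladder epithelium, Notch signalling is known mostly as a pathway with lost activity in some carcinomas.

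The promoters are shown for 6 members because they cover the range seen here, which ran from no peak over the promoter in any library to a peak in all 4. Each is the 250 bases upstream of the start given by RefSeq, build GRCh38.p14, written 5′ to 3′ on the strand of the gene. Capitals mark the RBPJ-type hexamer TGGGAA, or TTCCCA where the match lies on the other strand. HES1, chr3:194135898-194136147, plus strand, lay under no peak. HES2, chr1:6419920-6420169, minus strand, and HEYL, chr1:39639644-39639893, minus strand, lay under a peak over all 250 bases in the 4 libraries. HES3, chr1:6243929-6244178, plus strand, lay wholly under a peak with fenretinide, combination and vehicle, and under 0 peak bases with GSK-126. HES5, chr1:2530264-2530513, minus strand, was covered in the combination library alone, and HES7, chr17:8124107-8124356, minus strand, in the vehicle library alone. The vehicle library also had a HES5 peak, chr1:2530618-2531086, just upstream of the window shown. The consensus interval over that start held 9 fragments with GSK-126, 10 with fenretinide, 11 with the combination and 16 with vehicle.
HES1: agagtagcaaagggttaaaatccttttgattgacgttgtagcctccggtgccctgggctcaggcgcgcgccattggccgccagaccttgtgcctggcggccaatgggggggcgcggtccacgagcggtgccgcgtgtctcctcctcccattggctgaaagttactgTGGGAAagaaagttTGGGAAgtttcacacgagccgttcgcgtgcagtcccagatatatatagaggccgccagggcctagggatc
HES2: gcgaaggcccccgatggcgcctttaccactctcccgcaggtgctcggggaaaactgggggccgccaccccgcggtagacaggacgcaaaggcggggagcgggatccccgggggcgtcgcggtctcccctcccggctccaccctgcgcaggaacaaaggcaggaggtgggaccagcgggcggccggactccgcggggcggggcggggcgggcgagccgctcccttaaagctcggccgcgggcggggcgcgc
HES3: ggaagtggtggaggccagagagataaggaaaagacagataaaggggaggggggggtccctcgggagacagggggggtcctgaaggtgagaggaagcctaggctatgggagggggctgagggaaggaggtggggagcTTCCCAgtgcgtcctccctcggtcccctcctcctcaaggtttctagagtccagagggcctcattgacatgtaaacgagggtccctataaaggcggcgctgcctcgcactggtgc
HES5: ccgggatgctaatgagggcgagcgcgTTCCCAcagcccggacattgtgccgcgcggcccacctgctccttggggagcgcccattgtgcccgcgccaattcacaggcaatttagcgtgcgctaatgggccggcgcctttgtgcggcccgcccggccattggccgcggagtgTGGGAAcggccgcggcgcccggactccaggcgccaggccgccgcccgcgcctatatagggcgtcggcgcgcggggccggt
HES7: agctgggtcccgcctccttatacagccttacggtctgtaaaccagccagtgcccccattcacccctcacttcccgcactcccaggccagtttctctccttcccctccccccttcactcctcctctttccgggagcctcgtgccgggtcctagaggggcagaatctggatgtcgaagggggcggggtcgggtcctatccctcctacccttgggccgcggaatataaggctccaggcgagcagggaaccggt
HEYL: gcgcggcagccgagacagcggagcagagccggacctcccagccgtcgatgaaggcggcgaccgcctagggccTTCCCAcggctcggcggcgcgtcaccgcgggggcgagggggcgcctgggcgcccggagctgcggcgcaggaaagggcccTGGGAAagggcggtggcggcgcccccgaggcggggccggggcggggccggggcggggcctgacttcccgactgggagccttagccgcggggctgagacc

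HES1 had 2 matches to TGGGAA, with first bases 84 and 70 bases upstream of the start. HES5 had 2, at 224 and 80 bases, and HEYL had 2, at 178 and 99 bases. HES3 had 1 at 114 bases, HES4 1 at 76 bases and HEY2 1 at 213 bases, while HES2, HES6 and HES7 had none in this window. HEY1 had no promoter sequence in the set used, so the promoter counts here cover 9 members. Among 27305 RefSeq promoters cut to the same length, 21.1% held the hexamer on either strand. The N box CACNAG was in 32.0% of them. The pattern CACGNG, which takes in class C sites but also CACGTG, was in 26.5%, with CACGAG counting under both. HES1, whose protein is known to repress its own gene through such sites, had 3 N boxes and 4 matches to CACGNG. HES3 had 1 N box, HES7 had 1 of each, and HES2, HES4, HES5, HES6, HEY2 and HEYL had neither. These matches are letters in a window and not shown sites.

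The promoters also differed in CpG content, which was not part of how genes were chosen. The 3 promoters under a peak in at least 3 libraries were not alike in it. HES2 had 33 CpG in 250 bases and HEYL 35, against a median of 11 over all RefSeq promoters. HES3 had 7 CpG, at an observed over expected ratio of 0.327, against a median of 0.556. HES4, HES6 and HEY2 had 35 CpG each and HES1 had 18, and no library had a peak over these 4. High CpG counts thus occurred both under peaks and away from them. The only count below the median, 7 in HES3, lay under a peak in 3 libraries.

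With vehicle, the genes differed widely in how much of the mark lay near them, which is compared here as fragments per kb of interval with an exact Poisson interval for counting error. HES2 held 47.2 per kb (44.8 to 49.6) in a single domain of 31.3 kb. HES3 followed at 25.1 per kb (22.5 to 27.9), then HES4 at 19.3, HES5 at 17.6, HES1 at 15.6, HEY2 at 14.3, HEYL at 14.2, HEY1 at 13.6 and HES7 at 13.2 per kb. The counting interval of HES2 did not overlap that of HES3. The HES3 value averages 2 intervals, with 43.8 per kb in the one over its start and 12.1 in the one shared with GPR153. From HES3 downward, the interval of each gene overlapped that of the next. With GSK-126 the order was another one, led by HES4 at 16.8 per kb (11.1 to 24.5) and ending with HES1 at 4.54 per kb (3.84 to 5.34), and HES2 stood at 8.02 per kb (7.06 to 9.07). In that order, too, each interval overlapped the next.

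**Figure D1:**
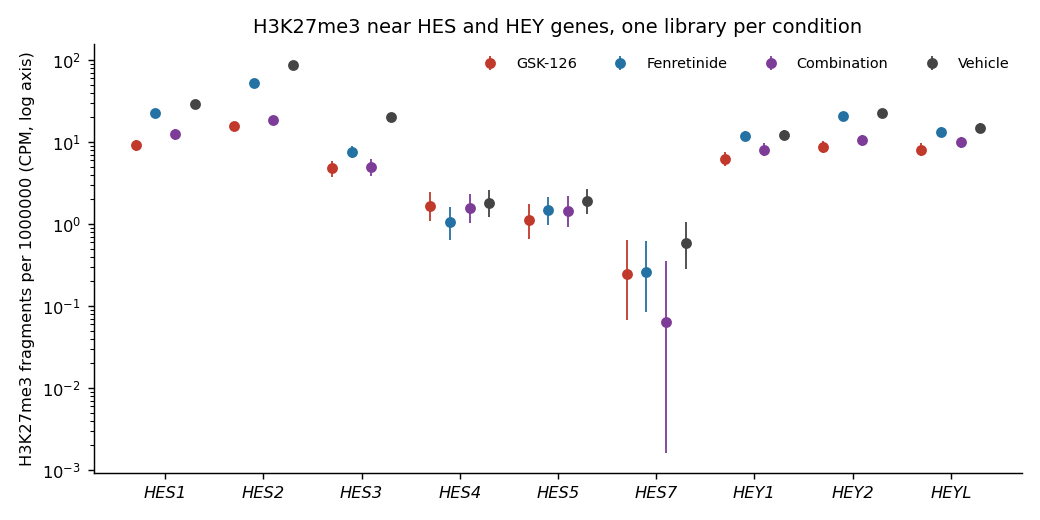
H3K27me3 level in CPM, fragments per 1000000 interval fragments of the library (log axis), near 9 HES and HEY genes, with points for GSK-126, fenretinide, combination and vehicle and bars for the 95% counting interval. HES2 stands at 15.5, 51.9 and 18.7 CPM in the GSK-126, fenretinide and combination libraries and at 86.2 CPM in the vehicle library. HES4, HES5 and HES7 stay under 2 CPM in every library.

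GSK-126 was compared with vehicle first, since it inhibits the enzyme that makes the mark. HES1, HES2, HES3 and HEY2 held a lower share of the GSK-126 library, by 2-fold or more. HEY1 and HEYL lay just short of 2-fold, while the counting intervals of HES4 and HES5 were wide and held 1. No member was higher. A gene was called lower at a ratio of library shares of at most 0.5, or higher at 2 or more, where the 95% counting interval excluded 1 and both libraries together held at least 50 fragments. Of the 9 genes, 8 had 50 fragments, and 4 of these were called lower, against 41.4% of 14725 genes called lower and 11.5% called higher. Since 4 of 8 is near that background, the count says nothing particular to the family. The median log2 ratio was -1.16 over the 8 members and -0.79 over all genes tested. The labels mention no spike-in, and each library share is a share of the fragments counted in the consensus intervals. A lower value here therefore means a lower share of those interval fragments.

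HES2 is one of the less studied HES repressors. It held 251 fragments with GSK-126, against 1477 with vehicle, a ratio of 0.180 (95% counting interval 0.157 to 0.206). Only 1.03% of genes tested had a lower log2 ratio. Its interval, chr1:6406006-6437309, spans the whole 4.69 kb gene and is also the nearest interval of ESPN, an actin-bundling protein gene, and of the microRNA gene MIR4252, so the same fragments stand for all 3 genes. The peak over the start measured 2.54 kb with GSK-126 and 31.3 kb with vehicle, and all peaks in the interval were 2 over 3.08 kb with GSK-126 and 1 over 31.3 kb with vehicle. The deposited peak score, the authors' own value with no stated scale, was 15 with GSK-126 and 64 with vehicle.

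HES3, a gene known from neural progenitors in mouse, had 77 fragments with GSK-126, against 342 with vehicle, a ratio of 0.239 (0.184 to 0.307). Most of that came from the interval over its start, chr1:6239556-6245155, with 48 fragments in the GSK-126 library and 245 in the vehicle library. The peak nearest the start measured 1.52 kb with GSK-126, where it lay upstream of the promoter shown, and 5.60 kb with vehicle, where it covered the start. In the vehicle list its score of 102 was above that of 99.7% of peaks. The second interval is shared with GPR153, a receptor gene next to HES3, and held 29 fragments with GSK-126 and 97 with vehicle.

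HES1, the member most widely used as a readout of Notch activity, had 147 fragments with GSK-126, against 504 with vehicle, a ratio of 0.309 (0.256 to 0.372). No interval lay over the gene itself. None came nearer to its start than 6363 bp, and the 2.58 kb gene sat in a gap between an upstream interval of 5.82 kb and a downstream interval of 26.5 kb. The upstream interval held 23 fragments with GSK-126 and 88 with vehicle. The downstream one, chr3:194145265-194171807, held 124 fragments with GSK-126 and 416 with vehicle, and counts for HES1 through 1 fenretinide peak centred 9866 bp away, just inside the 10 kb limit. The next HES2 peak, at 10042 bp with fenretinide, fell just outside that limit but lies in an interval already counted.

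HEY2, a Notch target in heart and arteries, had 141 fragments with GSK-126, against 385 with vehicle, a ratio of 0.388 (0.318 to 0.472). Its small start-site interval, 1.92 kb long, held 3 fragments with GSK-126 and 21 with vehicle, and a peak was called there in the vehicle library alone. The call rested on the 10 kb limit: with intervals at any distance HEY2 had 613 fragments with GSK-126 and 1104 with vehicle, a ratio of 0.589 (0.533 to 0.651), which is not past 2-fold. A distal interval of 40.9 kb upstream of HEY2, shared with RP1-293L8.2, made up most of the fragments added, with 386 in the GSK-126 library and 509 in the vehicle library, a ratio of 0.804 (0.703 to 0.920).

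HEY1, a Notch target of vessels and bone, had 100 fragments with GSK-126, against 208 with vehicle, a ratio of 0.510 (0.398 to 0.650), and was not called, although scaling with TMM factors put it past 2-fold. Most of these, 96 with GSK-126 and 183 with vehicle, came from 1 interval of 13.2 kb downstream of the gene. It counted through a fenretinide peak centred 8735 bp from the start. The HEY1 intervals nearer the start held few fragments, 0, 2 and 2 with GSK-126 and 6, 8 and 11 with vehicle. With intervals at any distance HEY1 had 489 fragments with GSK-126 and 1077 with vehicle, a ratio of 0.481 (0.432 to 0.536), and was called lower. By that count over any distance 4 of 8 members were lower with GSK-126, against 29.6% of all genes. HEYL, the third HEY gene, had 131 fragments with GSK-126, against 256 with vehicle, a ratio of 0.543 (0.436 to 0.672), and was not called. Its single interval, chr1:39624056-39642058, spans the start and most of the 16.2 kb gene. The start used in the deposited lists lies 6.55 kb from the RefSeq start, and both lie in that interval.

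The remaining HES genes had few fragments, in short intervals. HES4, a relative of HES1 that mouse lacks, had 27 fragments with GSK-126, against 31 with vehicle, a ratio of 0.924 (0.530 to 1.60). HES5, a Notch target of the nervous system, had 18 fragments with GSK-126, against 33 with vehicle, a ratio of 0.578 (0.307 to 1.06). The counting interval of HES5 ran from below 0.5 to above 1, so it held both a 2-fold difference and none. HES7, the segmentation clock gene, had 4 fragments with GSK-126, against 10 with vehicle, and missed the minimum.

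**Figure D2:**
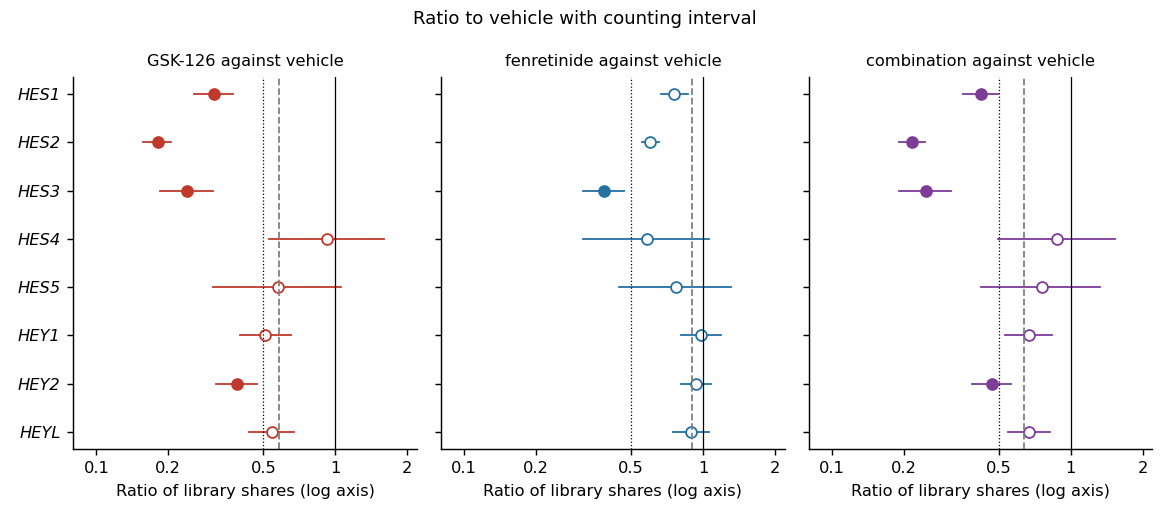
Ratio of library shares (log axis) for each treated library against vehicle at the 8 members with 50 or more fragments in the pair, with bars for the 95% counting interval, filled points for calls, a dotted line at 0.5 and a dashed line at the median of all genes tested. HES1, HES2 and HES3 lie left of the dashed line in each panel, and HES3 is the single filled point with fenretinide.

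Fenretinide was compared with vehicle next. HES3 was the only member past 2-fold, and HES1 and HES2 were lower by less than 2-fold, with counting intervals that excluded 1. Within 10 kb, HEY1, HEY2 and HEYL had counting intervals that held 1. Thus 1 of 8 members was called lower, against 1.5% of 14818 genes called lower and 0.337% called higher, and no member was called higher. The median log2 ratio was -0.39 over the members and -0.15 over all genes tested.

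HES3 had 145 fragments with fenretinide, against 342 with vehicle, a ratio of 0.384 (0.314 to 0.467). Only 0.216% of genes tested had a lower log2 ratio. Its start-site interval held 99 fragments in the fenretinide library and 245 in the vehicle library, while the peak there was nearly as long, at 4.98 kb with fenretinide and 5.60 kb with vehicle. The score of that peak was 22 with fenretinide and 102 with vehicle. The fenretinide peak still covered the start site and the promoter. Unscaled, the start-site interval held 17.7 fragments per kb with fenretinide and 43.8 with vehicle. The ratio of library shares in that interval was 0.366 (0.287 to 0.464).

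HES2 had 983 fragments with fenretinide, against 1477 with vehicle, a ratio of 0.602 (0.555 to 0.653), and the start-site peak measured 7.72 kb with fenretinide and 31.3 kb with vehicle. All peaks in that interval together, whichever gene they were named for, were 5 over 24.7 kb with fenretinide and 1 over 31.3 kb with vehicle. HES1 had 423 fragments with fenretinide, against 504 with vehicle, a ratio of 0.760 (0.666 to 0.866). HES4 had 20 fragments with fenretinide and 31 with vehicle, a ratio of 0.584 (0.315 to 1.06). HES5 had 28 fragments with fenretinide and 33 with vehicle, and HES7 had 5 with fenretinide and 10 with vehicle.

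The HEY genes stood nearer to vehicle. HEY1 had 225 fragments with fenretinide, against 208 with vehicle, a ratio of 0.979 (0.807 to 1.19). Of these, 205 with fenretinide and 183 with vehicle lay in the 13.2 kb interval, which counted only through a fenretinide peak. The HEY1 intervals nearer the start held 2, 8 and 10 fragments with fenretinide and 6, 8 and 11 with vehicle. HEY2 had 398 with fenretinide, against 385 with vehicle, a ratio of 0.936 (0.811 to 1.08). HEYL had 252 with fenretinide, against 256 with vehicle, a ratio of 0.891 (0.746 to 1.06). By library share within 10 kb, all 3 counting intervals held 1 and lay above 0.5. At any distance that of HEYL excluded 1, at a ratio of 0.823 (0.721 to 0.940), while those of HEY1 and HEY2 held 1. With intervals at any distance, HES3 was again the 1 member of 8 called lower, against 0.791% of all genes.

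The combination was then compared with vehicle. HES1, HES2, HES3 and HEY2 were called lower, as in the comparison of GSK-126 with vehicle, and both comparisons use the same vehicle library. These were 4 of 8 members, against 32.9% of 14736 genes called lower and 9.86% called higher, and no member was called higher. The median log2 ratio was -0.84 over the members and -0.64 over all genes tested.

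HES2 had 296 fragments with the combination, against 1477 with vehicle, a ratio of 0.217 (0.191 to 0.246). HES3 had 78 with the combination, against 342 with vehicle, a ratio of 0.247 (0.191 to 0.317). HES1 had 196 with the combination, against 504 with vehicle, a ratio of 0.421 (0.355 to 0.498). These 3 ratios had counting intervals wholly below 0.5. HEY2 had 166 fragments with the combination, against 385 with vehicle, a ratio of 0.467, and was the fourth call. HEY1 had 128 with the combination and 208 with vehicle, a ratio of 0.667, and HEYL had 158 with the combination and 256 with vehicle, a ratio of 0.669. HES4 had 25 with the combination and 31 with vehicle, HES5 had 23 with the combination and 33 with vehicle, and HES7 had 1 with the combination and 10 with vehicle. The HES7 ratio of 0.108 had a counting interval of 0.00250 to 0.762, from too few fragments to be called. With intervals at any distance 3 of 8 members were lower, HES1, HES2 and HES3, against 22.1% of all genes.

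**Figure D3:**
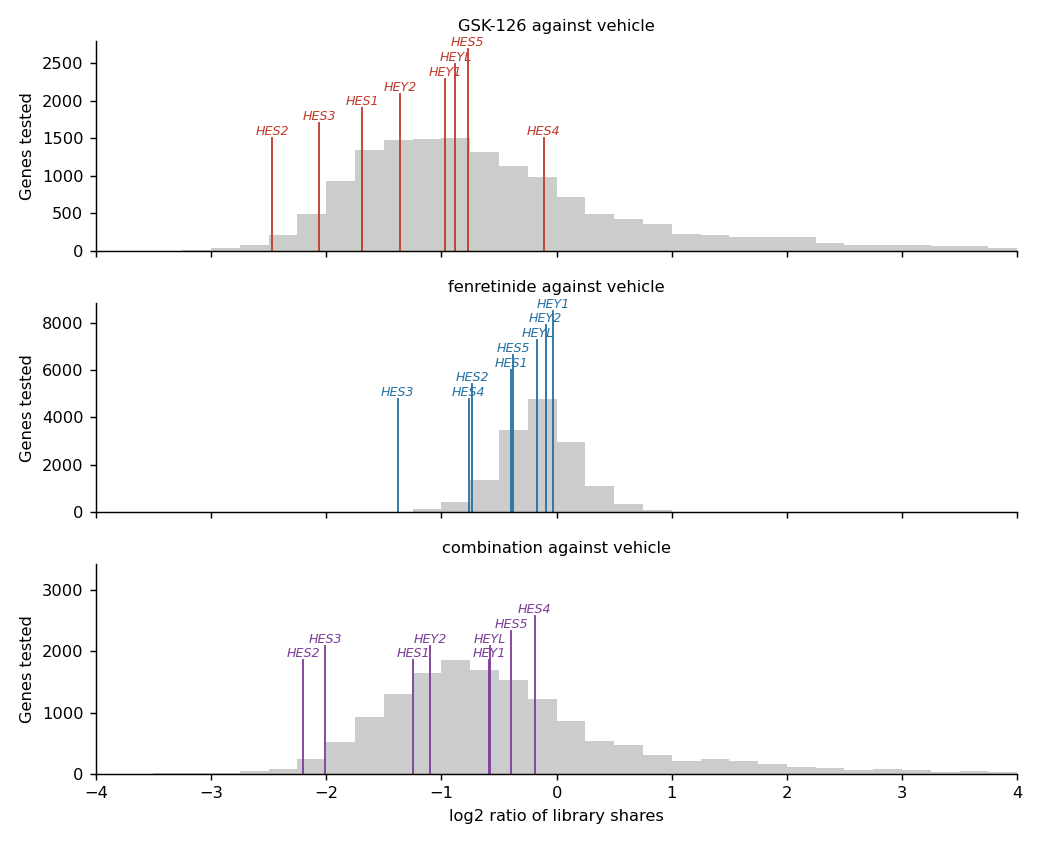
Number of genes tested (vertical axis) by log2 ratio of library shares (bins of 0.25) for each treated library against vehicle, with coloured lines at the members tested. With GSK-126, HES2 lies at -2.47 and HES4 at -0.11, and with fenretinide HES3 lies at -1.38, apart from the other members.

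The combination was also set against each single compound. Against GSK-126, 0 of 7 members with enough fragments were called in either direction, where 0.501% of 13777 genes were called lower and 0.443% higher. HES1 had 196 fragments with the combination and 147 with GSK-126, a ratio of 1.36 (1.09 to 1.70), and HES2 had 296 with the combination and 251 with GSK-126, a ratio of 1.20 (1.01 to 1.43). Both counting intervals lay above 1 and below 2, and those of the other 5 members held 1. This split changed with intervals at any distance, where HES2 stood at 1.12 (0.955 to 1.31), which held 1. There HES1, at 1.46 (1.22 to 1.77), HEY1, at 1.30 (1.15 to 1.46), and HEY2, at 1.13 (1.01 to 1.26), lay above 1. The median log2 ratio was 0.27 over the members and 0.08 over all genes tested.

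Against fenretinide, 2 of 7 members were called lower, HES2 and HEY2, against 18.7% of 14631 genes called lower and 9.43% called higher. HES2 had 296 fragments with the combination, against 983 with fenretinide, a ratio of 0.360 (0.315 to 0.411). HEY2 had 166 with the combination, against 398 with fenretinide, a ratio of 0.499 (0.414 to 0.600), at the edge of the threshold. HES1 stood at 0.555, HES3 at 0.644, HEY1 at 0.681 and HEYL at 0.751 in the same comparison, none past 2-fold. The median log2 ratio was -0.63 over the members and -0.49 over all genes tested.

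The counts over all genes moved with the scaling. When libraries were scaled on the 25% of intervals least dense in fragments, the log2 ratios against vehicle shifted by -0.77 with GSK-126, by -0.13 in the fenretinide library and by -0.81 with the combination. With GSK-126 against vehicle the genes called were then 10106 lower and 1067 higher, against 6096 lower and 1698 higher by library share. With fenretinide they were 391 lower and 27 higher, against 223 lower and 50 higher, and with the combination 10196 lower and 756 higher, against 4842 lower and 1453 higher. For the combination against fenretinide they were 8723 lower and 690 higher, against 2739 lower and 1380 higher. For the combination against GSK-126, DESeq2 size factors gave 106 lower and 19 higher, against 69 lower and 61 higher by library share, and the median log2 ratio of all genes was -0.05 instead of 0.08. No member was called higher under any of these scalings. The counting intervals given for ratios are by library share, so whether one with a bound near 1 holds 1 depends on the scaling.

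The peaks near the members were fewer and covered less in the treated libraries. Within 10 kb there were 10 peaks over 18.5 kb with GSK-126, 12 over 51.9 kb with fenretinide and 9 over 31.0 kb with the combination, against 17 over 83.5 kb with vehicle. A peak lay within 10 kb of 6 members with GSK-126, 7 with fenretinide, 7 with the combination and 9 with vehicle. The whole lists did not have this order, since the GSK-126 library had 217751 peaks covering 700.5 Mb, the fenretinide library 234815 covering 746 Mb and the combination library 274393 covering 829 Mb, against 212277 covering 703 Mb in the vehicle library. Those lists include peaks far from any gene, and peaks within 10 kb of all genes were not counted. The numbers near the members therefore cannot show anything particular to the family. In HES1, the combination library had 9 peaks at any distance that covered 10.5 kb, against 4 that covered 35.1 kb with vehicle. HEYL had 7.42 kb under peaks within 10 kb in the GSK-126 library, 15.5 kb with fenretinide and 15.9 kb with the combination, against 14.4 kb with vehicle.

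**Figure D4:**
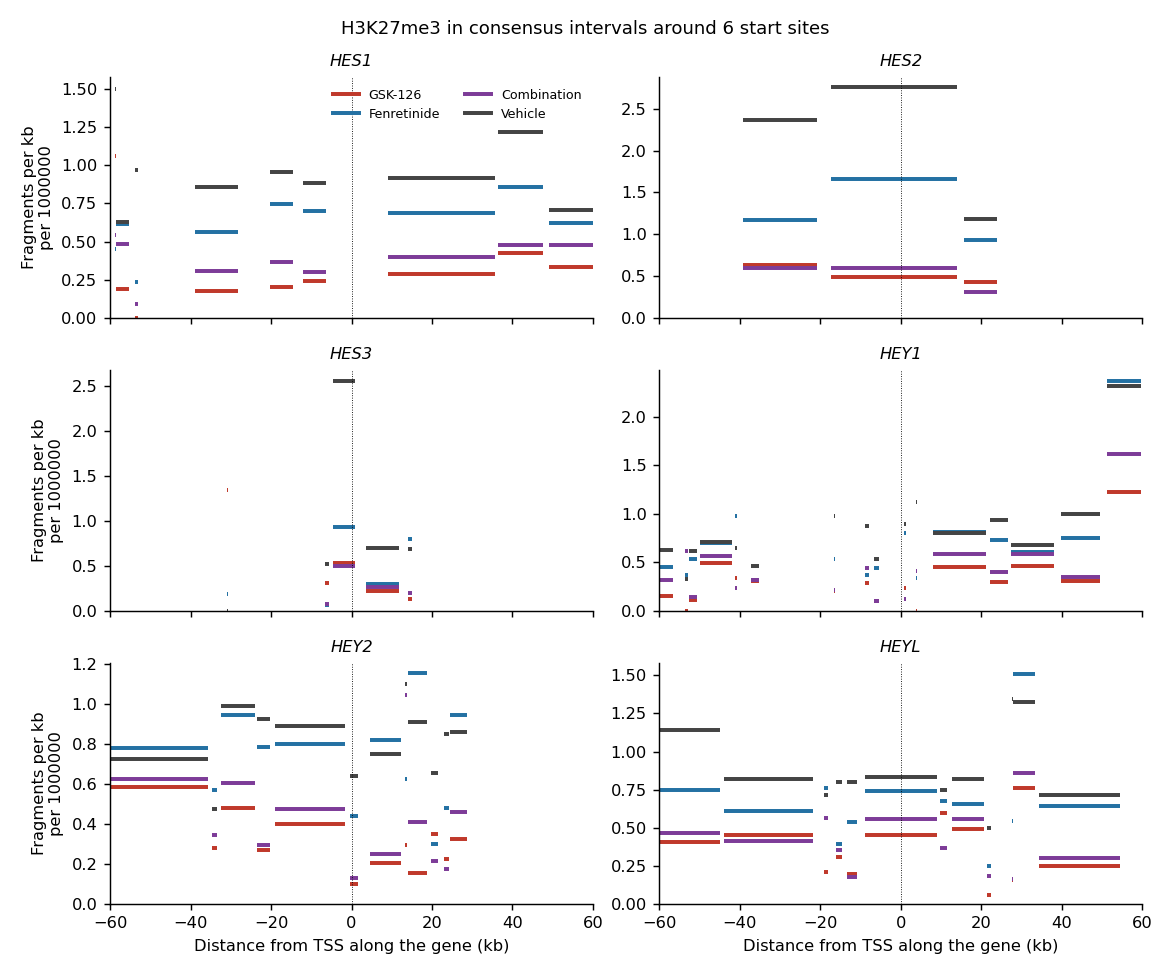
H3K27me3 fragments per kb per 1000000 interval fragments of the library (vertical axis) in each consensus interval, drawn as a bar over its extent, by distance in kb from the start along the gene for HES1, HES2, HES3, HEY1, HEY2 and HEYL and for the 4 libraries. The start of HES1 lies in a gap without intervals, while those of HES2, HES3 and HEYL lie inside one.

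Whether the members stood apart from the chromatin around them was described with the other intervals within 100 kb of each start, which share the libraries with the members. With GSK-126 against vehicle, the HES3 intervals had a ratio of 0.239 (0.184 to 0.307) and the intervals around them 0.609 (0.556 to 0.666). HES2 stood at 0.180 (0.157 to 0.206) and its surroundings at 0.279 (0.241 to 0.321), and HEY2 at 0.388 (0.318 to 0.472) and its surroundings at 0.629 (0.572 to 0.691). HES1 stood at 0.309 (0.256 to 0.372) and its surroundings at 0.416 (0.377 to 0.460). In these 4 genes the counting intervals did not overlap, and the gene was the lower of the pair. HES4 and HEYL went the other way: HES4 stood at 0.924 (0.530 to 1.60) and its surroundings at 0.309 (0.285 to 0.334), and HEYL at 0.543 (0.436 to 0.672) and its surroundings at 0.394 (0.361 to 0.430). For HEY1 and HES5 the counting intervals of gene and surroundings overlapped, at 0.510 and 0.523 for HEY1 and 0.578 and 0.537 for HES5.

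With fenretinide against vehicle, HES3 was again below its surroundings, at 0.384 (0.314 to 0.467) for the gene and 0.664 (0.610 to 0.721) for the intervals around it. HES2 was not, at 0.602 (0.555 to 0.653) for the gene and 0.533 (0.479 to 0.592) for the intervals around it. With the combination against vehicle, HES3 stood at 0.247 (0.191 to 0.317) and its surroundings at 0.520 (0.473 to 0.572). HES2 stood at 0.217 (0.191 to 0.246) and its surroundings at 0.250 (0.215 to 0.290). HEY2 was also below, at 0.467 (0.387 to 0.562) against 0.719 (0.656 to 0.788) around it. HES4 and HEYL went the other way, with HES4 at 0.874 (0.495 to 1.53) against 0.296 (0.273 to 0.321). HEYL stood at 0.669 (0.545 to 0.819) against 0.437 (0.402 to 0.476). For HES1, HES2, HES5 and HEY1 the counting intervals of gene and surroundings overlapped.

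**Figure D5:**
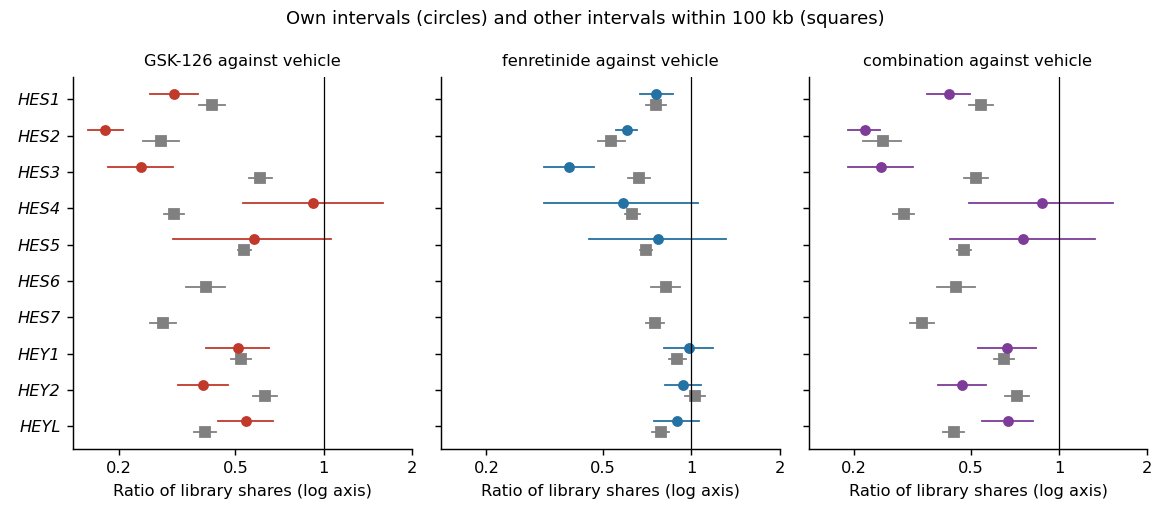
Ratio of library shares (log axis) for each treated library against vehicle, with circles for the intervals of a member that had 50 or more fragments in the pair, squares for the other intervals within 100 kb of its start, and bars for the 95% counting interval. HES3 lies left of its surroundings in all 3 panels, and HES4 lies right of them with GSK-126 and with the combination.

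HES2, HES3, HES4 and HES5 lie in the first 7 Mb of chromosome 1, and HEYL lies further along it. Of the 35 genes tested there with GSK-126 against vehicle, 21 were called lower, or 60%, and 2 higher, with a median log2 ratio of -1.24. Over all genes tested 41.4% were called lower and 11.5% higher. With fenretinide, 3 of 36 were called lower, or 8.33%, with a median of -0.57, where 1.5% of all genes were called lower. With the combination, 21 of 35 were called lower, where 32.9% of all genes were. These genes include the members and share intervals with each other.

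HES4, HES6 and HES7, whose own interval was small or absent, sat beside intervals named for other genes. This was described with all intervals that overlap the RefSeq gene and 10 kb on each side, a choice made after seeing the data. HES6, which in mouse antagonises HES1 rather than acting as a Notch target, then had 54 fragments with GSK-126, 117 in the fenretinide library and 62 with the combination, against 146 with vehicle. Its ratio was 0.392 (0.282 to 0.539) with GSK-126, and the intervals were named for LOC151174, LOC101927958 and LOC643387 in the deposited lists. HES7 had 70 fragments with GSK-126, 181 in the fenretinide library and 60 with the combination, against 234 with vehicle, a ratio of 0.317 (0.239 to 0.416) with GSK-126. The intervals it gained were named for ALOXE3, a lipoxygenase gene, and for the tRNA genes TRNAG2 and TRNAS6. HES4 had 177 fragments with GSK-126, 281 in the fenretinide library and 142 with the combination, against 353 with vehicle, through an interval of 14.5 kb named for PERM1. HES5 kept the same 3 intervals and fragments by this count. In all, 7 of 10 members were lower with GSK-126, against 30.7% of all genes, and 7 of 10 with the combination, against 23% of all genes. With fenretinide, 1 of 10 was lower, against 0.829% of all genes.

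The upstream part of the pathway was read from gene lists, whose counts stand beside the shares of all genes called lower, 41.4% with GSK-126, 1.5% with fenretinide and 32.9% for the combination against vehicle. Of 7 Notch ligand genes, 6 had an interval, and all 6 were lower with GSK-126 and with the combination. With fenretinide 3 of 6 were lower. DLL4, a ligand of vessels, had 8 fragments with GSK-126, 21 in the fenretinide library and 12 with the combination, against 69 with vehicle. Its ratio to vehicle was 0.123 (0.0511 to 0.256) with GSK-126, 0.275 (0.160 to 0.455) with fenretinide and 0.188 (0.0929 to 0.351) for the combination. DLL1, a ligand of the embryo, had 42 with GSK-126, 132 in the fenretinide library and 46 with the combination, against 240 with vehicle. JAG2 had 54 with GSK-126, 103 in the fenretinide library and 39 with the combination, against 198 with vehicle. The median log2 ratio of the ligand genes was -1.82 with GSK-126, -0.75 in the fenretinide library and -1.91 with the combination, where all genes tested had -0.79 with GSK-126, -0.15 in the fenretinide library and -0.64 with the combination. JAG1 had no interval.

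Of the receptor genes, NOTCH3 and NOTCH4 had enough fragments and NOTCH1 had no interval. NOTCH4 had 213 fragments with GSK-126, against 537 with vehicle, a ratio of 0.421 (0.357 to 0.494). NOTCH3 had 455 with GSK-126, against 943 with vehicle, a ratio of 0.512 (0.457 to 0.573), which was not called, and 387 with the combination, a ratio to vehicle of 0.445 (0.394 to 0.501). With fenretinide 0 of 2 receptor genes were called.

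Among genes for Notch processing and the nuclear complex, 6 of 10 tested were lower with GSK-126 (41.4% of all genes), 2 of 11 with fenretinide (1.5%) and 6 of 10 with the combination (32.9%). NEURL1, a ubiquitin ligase for ligands, had 115 fragments with GSK-126, against 440 with vehicle, a ratio of 0.277 (0.224 to 0.341). The other named falls with GSK-126 were MFNG, a glycosyltransferase that modifies the receptors, and DTX3, of the Deltex family, both at 0.326. With fenretinide the calls were DTX3 at 0.487 and LFNG at 0.494. RBPJ itself missed the minimum, with 27 fragments with GSK-126 and 13 with vehicle.

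Among corepressors and partners, 5 of 6 tested were lower with GSK-126 (41.4% of all genes), 0 of 6 with fenretinide (1.5%) and 4 of 6 with the combination (32.9%). TLE3 had 77 fragments with GSK-126, against 337 with vehicle, a ratio of 0.242 (0.187 to 0.311), TLE4 stood at 0.299 and TLE2 at 0.343. Among related helix-loop-helix repressors, 3 of 4 tested were lower with GSK-126, 1 of 5 with fenretinide and 2 of 4 with the combination, against the same shares of all genes. BHLHE41, a clock-linked repressor of the same superfamily, had 45 fragments with GSK-126, 108 in the fenretinide library and 45 with the combination, against 225 with vehicle. HELT, a relative of the HEY genes, was the single listed gene called higher in the combination against GSK-126, with 67 fragments with the combination and 30 with GSK-126, a ratio of 2.28 (1.46 to 3.64).

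The proneural and myogenic factors, which HES proteins are known to repress, all had an interval. With GSK-126 11 of 22 were lower, at a median log2 ratio of -0.98, with fenretinide 0 of 22, at a median of -0.26, and with the combination 8 of 22, at a median of -0.74. All genes tested had 41.4% lower and a median of -0.79 with GSK-126, 1.5% and -0.15 with fenretinide, and 32.9% and -0.64 with the combination, so these counts lay near the background. Of the urothelial genes, 4 of 6 were lower with GSK-126, 0 of 6 with fenretinide and 4 of 6 with the combination, beside those same shares of all genes. Of the housekeeping genes, B2M alone had 50 fragments in the pair, with 322 fragments with GSK-126, against 690 with vehicle, a ratio of 0.495 (0.432 to 0.566), and GAPDH had no interval. None of these lists had a member called higher against vehicle.

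The genes with the most similar pattern over the 4 libraries were found among 9919 genes with at least 400 fragments, by the Euclidean distance between log2 library shares centred on their own mean. For HES1 they were C2orf72, COX5B and TDRD10, the first at a distance of 0.0273. For HES2 they were PRR5, CAMK1D and CEBPA, from 0.0999 upward. For HES3 the nearest genes, LMF1 and SOX8, which have the same values as each other, were as far as 0.257. For HEY1 they were PSKH2, MIR3937 and BEX1, the nearest at 0.0275, and for HEYL DPPA5, RARRES3 and C1orf146, the nearest at 0.0149. HES3 thus had the least closely matched pattern of these 5 genes.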

How the data were processed

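The 4 H3K27me3 ChIP libraries of T24 cells were analysed. The authors deposited raw fragment counts for 273664 consensus intervals, made with featureCounts 2.0.1 from read pairs without strand, at a minimum overlap fraction of 0.2, with a fragment counted in every interval it overlaps, per the file headers. The authors also deposited broad peaks of each library with a peak score, annotated with HOMER per the file headers and, per the submitters' processing notes, called by MACS2 2.1.0. The control for peak calling and the aligner were not given in the sources used here. Coordinates are GRCh38, 1-based.

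Interval fragments per library were 16156194 (GSK-126), 18928836 (fenretinide), 15812933 (combination) and 17133107 (vehicle). Library shares are shares of these interval fragments. Ratios are of library shares, with 95% exact Clopper-Pearson counting intervals, and log2 ratios used a pseudocount of 0.5. Intervals cover counting error only. An interval shared by genes counted for each. No p-value was computed. Self-tests on simulated counts preceded the calls. Members, lists and thresholds were chosen with earlier results of these data known. Named genes were all members, genes sharing an interval with one, up to 3 called genes with the lowest and up to 3 with the highest ratio of each list in a comparison, and the 3 genes most alike (those for HEY2 are not reported here); RBPJ, NOTCH3, JAG1, NOTCH1 and GAPDH were added after their values were seen, as were genes named at intervals of HEY2, HES4, HES6 and HES7. Alternatives were size factors from DESeq2 1.42.0, TMM factors from edgeR 4.0.16 (both used for factors alone) and scaling on the 25% of intervals least dense in fragments, and other minimums, ratios, distances, scores and interval choices. Python 3.11.15, pandas 2.3.3, scipy 1.17.1 and R 4.3.3 were used.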

Additional observations from a re-analysis of the deposited data

How the results depend on the processing

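No member was called higher and no called log2 ratio changed sign under the alternatives run. HES4, below the fragment minimum in the combination against fenretinide, stood at 0.57 by peaks within 10 kb and at -0.72 with intervals over the RefSeq gene and 10 kb on each side, with a ratio there of 0.605 (0.491 to 0.743). Of the counts of members called lower, 13 moved past 1.5 times. With peaks within 2 kb of the start the counts were 2 for GSK-126 against vehicle, 2 for the combination against vehicle and 1 for the combination against fenretinide. With scaling on the least dense intervals they were 7 for GSK-126 against vehicle, 8 for the combination against vehicle and 6 for the combination against fenretinide, of 8, 8 and 7 members tested, while all genes called lower were 10106 of 14725, 10196 of 14736 and 8723 of 14631 in those comparisons. With intervals over the RefSeq gene and 10 kb on each side, chosen after seeing the data, they were 7 for GSK-126 and 7 for the combination, both against vehicle. For the combination against fenretinide the count was 1 with any distance, 1 with peak scores of at least 20, 1 without shared intervals, which leave HES2 with no value, and 4 at a ratio of 1.5. For fenretinide against vehicle it was 2 at a ratio of 1.5. The other counts of members called lower stayed within 1.5 times. TMM factors called HEY1 lower with GSK-126. The cause of these moves was not tested, apart from the fewer genes tested under the 2 kb limit and without shared intervals. No paired analysis was possible because each condition had 1 library. HES4, HES5 and HES7 had at most 33 fragments in any library, so counting error limits them most, and the range of replicates is unknown for all members.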
